A study of Mus musculus with 12 samples.

Results

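The mitochondrially encoded transcripts are the rows of the deposited count table whose gene name begins with mt-. The rule found 37 of the 55421 Ensembl genes in the table: 13 protein-coding genes, 2 ribosomal RNA genes and 22 transfer RNA genes. Of these 37 genes, 16 had a count in at least 1 library and 14 passed the low-count filter and were tested. The cells were MOC2, a mouse squamous cell carcinoma line. A derivative named MOC2-25 was labelled EV-Proficient and one named MOC2-27 was labelled EV-Deficient, where EV stands for extracellular vesicle. The study asked how vesicles from senescent tumour cells bear on inflammation and blocked their release by a genetic change, whose target the labels do not name. Each derivative was grown in culture and given DMSO (the vehicle) or 600 nM paclitaxel, a microtubule-stabilising drug used here to induce senescence, for 48 h. The 4 groups held 3 libraries each. Because each EV label belongs to a single derivative, a difference in vesicle release and any other difference between the derivatives cannot be told apart.

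Mitochondrial DNA is a small circular genome, kept in many copies per cell, that is transcribed from both strands into long precursor RNAs. The precursors are cut at the transfer RNAs that lie between most of the genes, and most of the messenger RNAs and the ribosomal RNAs then receive short 3′ A tails. All of the encoded proteins are core subunits of the respiratory chain and of ATP synthase: the mt-Nd proteins belong to complex I, mt-Cytb to complex III, mt-Co1, mt-Co2 and mt-Co3 to complex IV (cytochrome c oxidase), and mt-Atp6 and mt-Atp8 to complex V. The other subunits, and every protein that copies, transcribes or processes mitochondrial nucleic acid, are encoded in the nucleus. The libraries were made from RNA selected on oligo-dT beads, so transfer RNAs and RNAs with short tails reach the count table less completely than messenger RNAs do, and the share of counts measured here is not the share of mitochondrial RNA in total RNA.

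Library totals ran from 23263472 to 62955757 counts, and a floor of 3 counts corresponded to 0.0477 to 0.129 unscaled CPM (counts divided by the library total and brought to a common total). Elsewhere CPM is on library sizes scaled in edgeR, unless called unscaled. Of 9 fixed markers of squamous epithelium, 7 were at 1 CPM or more in all 12 libraries, while Krt5 (at most 0.170 CPM) and Trp63 (at most 0.180 CPM) were at or near 0. A row for dngfr, a sequence added to the table by the authors, ran in opposite directions between the EV labels under the 2 treatments: 5.29 to 11.4 unscaled CPM in the EV-proficient and 1.68 to 2.33 in the EV-deficient DMSO libraries, against 2.6 to 4.0 and 10.9 to 14.2 under paclitaxel. The labels do not say which derivative carries this sequence, and an exchange of EV labels within 1 treatment cannot be told apart from a change of dngfr with treatment. Such an exchange would reverse the EV comparison in that treatment and would pair other groups in the paclitaxel comparisons within a label and in the interaction. The comparison of paclitaxel with DMSO averaged over both EV labels is therefore given first, since it does not depend on which EV label a library of a given treatment carries, and groups are named throughout as the deposited labels name them.

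The levels of the mitochondrial genes spanned a wide range, although the genes are read from shared precursors. On the scale of CPM per kilobase of gene, averaged over the 12 libraries, mt-Co1 stood highest at 3081, followed by mt-Cytb at 899, mt-Nd1 at 788, mt-Nd2 at 448, mt-Nd5 at 309, mt-Nd4 at 262 and mt-Nd6 at 211. The ribosomal RNAs mt-Rnr2 (141 CPM per kilobase) and mt-Rnr1 (137) and the proline transfer RNA mt-Tp (129) came next. The place of mt-Tp rests on its length of 67 bases, since before division it was at 8.66 CPM and mt-Rnr1 at 131 CPM. The lowest levels were those of mt-Co2 (14.4), mt-Co3 (7.31), mt-Atp6 (5.29), mt-Nd3 (1.08), mt-Nd4l (0.495) and mt-Atp8 (0.0846), all in CPM per kilobase. The ranges over libraries of neighbours in this order did not overlap at 4 steps: mt-Co1 above mt-Cytb, mt-Nd1 above mt-Nd2, mt-Tp above mt-Co2, and mt-Atp6 above mt-Nd3. At the other steps the ranges overlapped, and mt-Rnr2 lay above mt-Rnr1 in 7 of the 12 libraries. Of the 22 transfer RNAs, mt-Tp was counted (201 to 538 counts per library) and the other 21 were listed at 0 in every library.

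**Figure D1:**
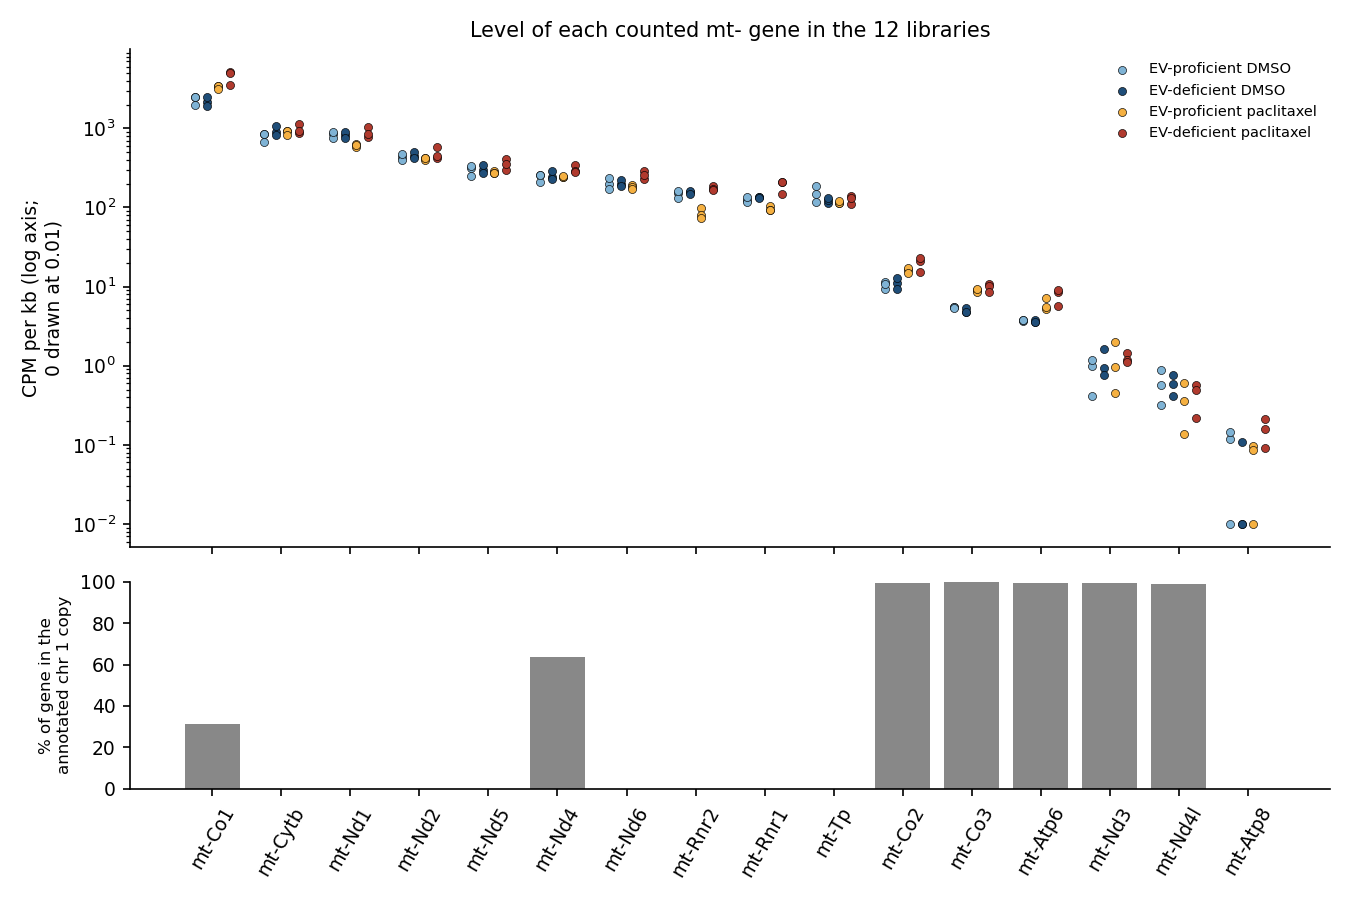
Level of the 16 mt- genes with any count, in CPM per kilobase of gene on a log axis (upper panel, 1 point per library, coloured by group, 0 drawn at 0.01), and the percentage of each gene's bases that align to its annotated copy on chromosome 1 (lower panel). The 5 genes aligned over almost their whole length (mt-Co2, mt-Co3, mt-Atp6, mt-Nd3 and mt-Nd4l) and mt-Atp8, which has no annotated copy, are the lowest 6.

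Of the 6 lowest genes, 5 have a near-complete copy in nuclear DNA, and mt-Atp8, the lowest, has none annotated, while mt-Co1, the highest, and mt-Nd4 have part of their sequence copied. In the GENCODE M21 annotation of GRCm38, the build named in the submitters' processing notes, a run of pseudogenes on the minus strand of chromosome 1 (24611535 to 24616197) carries a near-complete copy of part of the mitochondrial genome. The annotated transcript of mt-Co2 (684 bases) aligned to Gm28661 over 681 bases at 100.0% identity, mt-Atp6 to Gm10925 over 678 bases at 100.0%, mt-Co3 to Gm28437 over 783 bases at 100.0%, and mt-Nd4l to Gm10222 over 294 bases at 100.0%. mt-Nd3 aligned to Gm28438 over 345 bases with 1 mismatch. The copy holds 876 of the 1378 bases of mt-Nd4 (Gm28439, no mismatch) and 483 of the 1545 bases of mt-Co1 (Gm29216, 1 mismatch). mt-Atp8 has no annotated copy of its own and lies between mt-Co2 and mt-Atp6, sharing 43 bases with the latter that lie in Gm10925. On chromosome 1 the copies of these neighbours flank a gap between 24614651 (Gm10925) and 24614885 (Gm28661). Whether that gap holds the rest of mt-Atp8 was not checked, since only annotated transcripts were aligned. Other copies are less alike: Gm13340 on chromosome 2 matched mt-Co1 over 1545 bases at 97.6%, and Gm11410 on chromosome 4 matched mt-Cytb at 92.9%.

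Stretches of 3 genes and of a nuclear copy of each, the opening bases for mt-Co2 and mt-Nd3 and an inner stretch for mt-Co1, are shown because they set how far a read can be assigned to the mitochondrial genome. Sequences are GENCODE M21 transcripts on GRCm38, given 5′ to 3′ on the transcribed strand, and capitals mark the bases at which the members of a pair differ. The mt-Co2 stretch is chrM:7013-7072 (plus strand) and that of Gm28661 chr1:24615506-24615565 (minus strand), with 0 differences.
mt-Co2: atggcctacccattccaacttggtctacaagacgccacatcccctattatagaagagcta
Gm28661: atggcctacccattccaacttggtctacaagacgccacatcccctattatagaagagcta
The mt-Nd3 stretch is chrM:9459-9518 (plus strand) and that of Gm28438 chr1:24613060-24613119 (minus strand). They differ by T3C, counted from 1 at the first base of the mitochondrial gene.
mt-Nd3: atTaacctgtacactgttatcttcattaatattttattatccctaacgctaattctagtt
Gm28438: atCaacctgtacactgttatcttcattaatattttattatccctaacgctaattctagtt
The mt-Co1 stretch is bases 45 to 104 of the gene, chrM:5372-5431 (plus strand), beside Gm13340 at chr2:22589544-22589603 (minus strand). They differ by C54A, A60G and G87A, counted in the same way.
mt-Co1: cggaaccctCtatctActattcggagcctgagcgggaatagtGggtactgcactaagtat
Gm13340: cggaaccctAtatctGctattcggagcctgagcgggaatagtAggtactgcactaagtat

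Reads that fall in a stretch without differences, such as the pair of mt-Co2 and Gm28661, match both places equally. Of all stretches of 50 bases in mt-Co2, 100% also occur in a nuclear copy, against 99.9% in mt-Co3, 99.5% in mt-Atp6, 62.2% in mt-Nd4, 51.1% in mt-Co1 and 0% in mt-Nd1, mt-Cytb, mt-Nd6 and both ribosomal RNAs. The chromosome 1 copies had more counts than their mitochondrial partners for mt-Co2, mt-Co3, mt-Atp6 and mt-Nd3 in all 12 libraries, with median ratios of copy to mitochondrial gene of 1.27, 1.21, 2.79 and 8.54. They had far fewer for mt-Co1 (median ratio 0.00169) and mt-Nd4 (0.00330), whose genes extend beyond the copy. If all counts of mt-Co1 are placed on its 1062 bases outside that copy, its level is 4482 CPM per kilobase, and that of mt-Nd4 on its 502 such bases is 719. How reads matching both places were counted is not given in the sources used here, and its part in the low counts was not tested. The counts of mt-Co2, mt-Co3, mt-Atp6, mt-Nd3 and mt-Nd4l are therefore uncertain as levels, and reads of these genes and of their copies cannot be told apart.

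Mitochondrial transcripts took a larger share of the counts after paclitaxel under both EV labels. In the EV-proficient DMSO libraries the share was 0.688%, 0.550% and 0.720% (mean 0.653% ± 0.090, SD, n = 3), and in the EV-proficient paclitaxel libraries 0.907%, 0.882% and 0.846% (mean 0.878% ± 0.031, SD, n = 3). In the EV-deficient DMSO libraries it was 0.621%, 0.729% and 0.581% (mean 0.644% ± 0.076, SD, n = 3), and in the EV-deficient paclitaxel libraries 1.45%, 1.29% and 1.07% (mean 1.27% ± 0.19, SD, n = 3). Every paclitaxel library lay above every DMSO library, the ranges of the DMSO groups overlapped, and the EV-deficient paclitaxel libraries lay above all others. The ratio of paclitaxel to DMSO means was 1.35 for the EV-proficient and 1.97 for the EV-deficient label. With library sizes scaled by trimmed mean of M values (TMM), which sets the bulk of genes level between libraries, the ratios were 1.18 and 1.58. On that scale the treatments did not overlap within a label, but the lowest EV-proficient paclitaxel library (7954 CPM) lay below the highest EV-deficient DMSO library (7979 CPM). No test was made of this sum.

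Most of the difference in share lay in mt-Co1, the catalytic core subunit of complex IV. Without mt-Co1, the share of all other mitochondrial genes was 0.324% ± 0.041 in EV-proficient DMSO and 0.340% ± 0.012 in EV-proficient paclitaxel libraries (SD, n = 3 each), and these ranges overlapped. In the EV-deficient label it was 0.339% ± 0.036 under DMSO and 0.474% ± 0.063 under paclitaxel (SD, n = 3 each), and these ranges did not overlap. The ratio of mt-Co1 to mt-Nd1 counts, which does not depend on how libraries are scaled, was 4.05 to 4.74 in the 6 DMSO libraries and 6.67 to 10.5 in the 6 paclitaxel libraries. Its means under DMSO and paclitaxel were 4.47 and 8.73 in the EV-proficient label, and 4.25 and 8.37 in the EV-deficient label. The summed share of Malat1 and Neat1, nuclear RNAs taken here as a possible sign of RNA quality, was also higher under paclitaxel. Its group means were 0.0299% and 0.0346% in the EV-proficient and EV-deficient DMSO libraries, and 0.0487% and 0.0926% under paclitaxel. Within the EV-deficient paclitaxel group, replicate 1 had the highest mitochondrial share and the lowest Malat1 and Neat1 share (0.0718%). Summed leukocyte markers were at 6.63 to 9.73 CPM under DMSO and 22.5 to 40.0 CPM under paclitaxel, nearly all of it Cd68 (6.18 to 39.2 CPM over all libraries), with 1 of the 7 markers at 1 CPM or more in every library and Cd3e (at most 0.0438 CPM) and Lyz2 (0.151) at or near 0. Summed fibroblast markers (none of 5 at 1 CPM or more in every library) were at 1.08 to 2.43 CPM under DMSO and 4.53 to 6.62 under paclitaxel, and endothelial markers (none of 4) at 1.77 to 2.60 and 2.75 to 4.35. Summed markers of squamous epithelium were at 2667 to 2827 CPM under DMSO and 2743 to 2879 under paclitaxel in the EV-proficient label, and at 3412 to 3613 and 2113 to 2431 in the EV-deficient label. The part of these in the mitochondrial share and in the comparisons that follow, of treatments and of EV labels, was not tested. A share of counts cannot tell more mitochondrial RNA from less nuclear RNA.

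**Figure D2:**
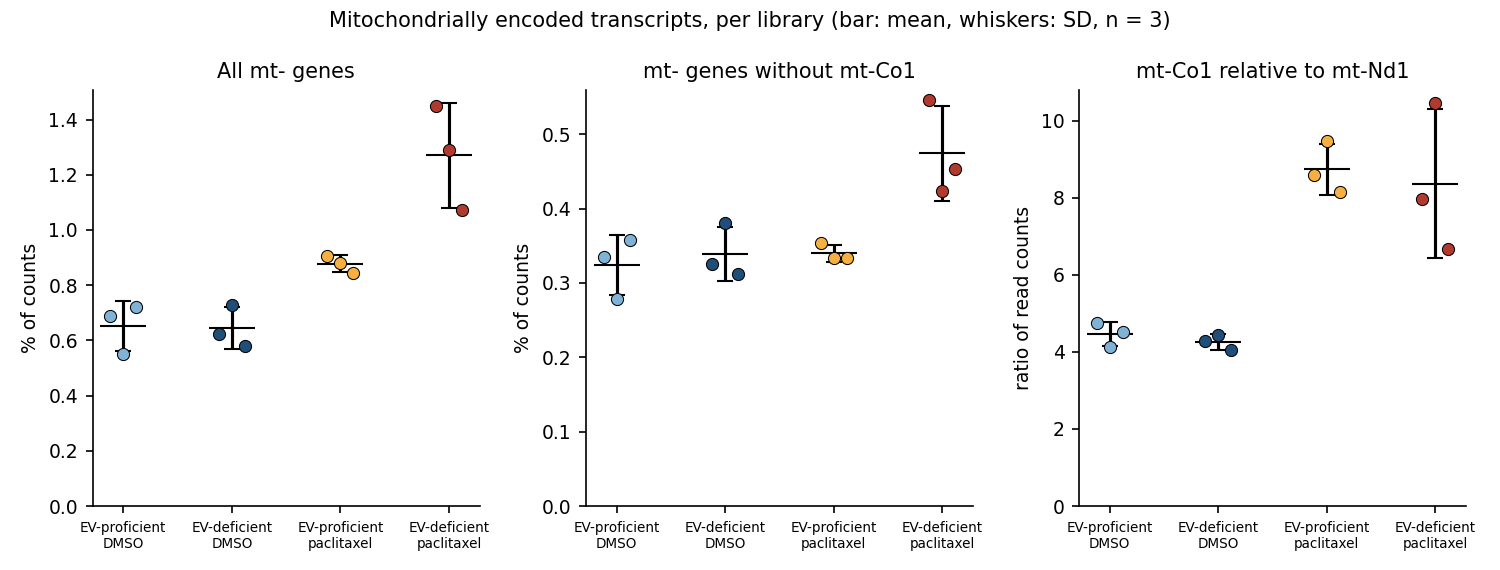
Share of all counts on the mt- genes (left), the same without mt-Co1 (middle), both in percent, and the ratio of mt-Co1 to mt-Nd1 counts (right), with 1 point per library, a bar for the group mean and whiskers for the SD (n = 3). All paclitaxel libraries lie above all DMSO libraries in the left and right panels, from 0.846% and from a ratio of 6.67, while in the middle panel the EV-proficient groups overlap.

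Within the mitochondrial counts, the share of mt-Co1 was larger and that of the complex I genes smaller in paclitaxel libraries. The complex IV genes took 50.4% ± 0.97 of mitochondrial counts in EV-proficient DMSO, 47.4% ± 0.86 in EV-deficient DMSO, and 61.5% ± 0.85 and 62.6% ± 4.8 in EV-proficient and EV-deficient libraries given paclitaxel (SD, n = 3 each), and nearly all of it was mt-Co1, with 50.3%, 47.3%, 61.3% and 62.4% in that order. The complex I genes took 31.6% ± 0.84, 32.1% ± 0.54, 23.5% ± 1.1 and 23.0% ± 3.3 in the same order. For both complexes the 6 DMSO and the 6 paclitaxel libraries did not overlap. Shares add up to a fixed total, so a larger mt-Co1 share lowers the others: the median log2 fold change of the 6 tested complex I genes was 0.08 on average, -0.10 in the EV-proficient and 0.20 in the EV-deficient label. mt-Cytb, the complex III gene, took 12.8% and 15.0% of mitochondrial counts in the EV-proficient and EV-deficient DMSO libraries and 12.2% and 10.2% under paclitaxel. The ribosomal RNAs together took 5.03% ± 0.20 and 5.34% ± 0.43 under DMSO, and 2.72% ± 0.24 and 4.10% ± 0.22 under paclitaxel, in the EV-proficient and EV-deficient libraries (SD, n = 3 each). The paclitaxel and DMSO ranges did not overlap within either EV label, and the EV-proficient paclitaxel libraries were the lowest of all.

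Averaged over both EV labels, counts of mt-Co1, mt-Co2, mt-Co3 and mt-Atp6 rose under paclitaxel. The large ribosomal RNA mt-Rnr2 was lower on average, but its log2 fold change was -0.80 in the EV-proficient and 0.16 in the EV-deficient label. Of the 4 protein genes, mt-Co1 has most of its sequence outside the chromosome 1 copy, and for the other 3 the reads of gene and copy cannot be told apart. In edgeR's quasi-likelihood test, with a threshold of 0.05 on p-values that were Benjamini-Hochberg adjusted across 18108 genes, 5 of the 14 tested mitochondrial genes were higher and 2 lower. Over all genes 68.4% were called in this comparison, 37.1% higher and 31.3% lower, so 7 of 14 is no more than the background. The median log2 fold change of the 14 genes was 0.11, beside 0.07 for all genes tested. The 4 tested genes of complexes IV (3) and V (mt-Atp6 alone) were higher, with a median log2 fold change of 0.82. Under upper-quartile scaling, which shifted the median of all genes by 0.12, the split of mitochondrial calls was 9 higher and 1 lower, and the 4 genes of complexes IV and V remained higher.

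mt-Co1 was at 3812, 3014 and 3852 CPM in EV-proficient DMSO (replicates 1, 2 and 3), 3327, 3816 and 2941 in EV-deficient DMSO, 5249, 5230 and 4818 in EV-proficient paclitaxel, and 7999, 7672 and 5396 in EV-deficient paclitaxel libraries. Every paclitaxel library lay above every DMSO library, and EV-deficient paclitaxel replicate 3 lay well below the other libraries of its group. The average log2 fold change was 0.79 ± 0.08 (SE), or 1.73-fold, with an adjusted p of 2.15e-08 in edgeR.

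mt-Co2 encodes the subunit of complex IV that takes electrons from cytochrome c. It was at 7.82, 6.39 and 7.46 CPM in EV-proficient DMSO, 7.58, 8.69 and 6.40 in EV-deficient DMSO, 11.2, 11.8 and 10.2 in EV-proficient paclitaxel, and 14.4, 15.7 and 10.5 in EV-deficient paclitaxel libraries. The 2 treatments did not overlap, and the average log2 fold change was 0.73 ± 0.10 (SE, adjusted p = 2.10e-06 in edgeR). For mt-Co3, the third core subunit, the values were 4.31, 4.35 and 4.18 CPM, 3.69, 4.25 and 3.75 CPM, 7.15, 6.64 and 7.32 CPM, and 8.47, 7.89 and 6.72 CPM in the same order of groups. Again the treatments did not overlap, and the log2 fold change was 0.85 ± 0.10 (SE, adjusted p = 1.10e-07 in edgeR). mt-Atp6, the subunit of ATP synthase through which protons pass, was at 2.48, 2.58 and 2.57 CPM, 2.46, 2.61 and 2.41 CPM, 4.88, 3.57 and 3.76 CPM, and 5.87, 6.12 and 3.89 CPM. Its paclitaxel libraries all lay above its DMSO libraries, with a log2 fold change of 0.88 ± 0.14 (SE, adjusted p = 6.53e-06 in edgeR). All paclitaxel libraries lay above all DMSO libraries in 18.3% of the genes tested.

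mt-Co2, mt-Co3 and mt-Atp6 share nearly all their sequence with chromosome 1. Of the 7 chromosome 1 copies tested, 4 were higher under paclitaxel and none lower, with a median log2 fold change of 0.75, where 37.1% of all genes were higher. The average log2 fold change was 0.75 ± 0.09 for Gm28661 (copy of mt-Co2), 0.89 ± 0.11 for Gm28437 (mt-Co3), 0.86 ± 0.10 for Gm10925 (mt-Atp6) and 0.75 ± 0.11 for Gm29216 (mt-Co1), each ± SE and each past the threshold (adjusted p of 1.21e-07, 4.15e-07, 1.97e-07 and 3.28e-06 in edgeR). With the counts of each mitochondrial gene and its copy summed, an alternative chosen after the data were seen, the log2 fold changes were 0.74 for mt-Co2, 0.87 for mt-Co3 and 0.86 for mt-Atp6. The other copies did not pass the threshold: Gm28438 (mt-Nd3) was at -0.15, Gm28439 (mt-Nd4) at 0.35 and Gm10222 (mt-Nd4l) at -0.10.

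The 16S ribosomal RNA mt-Rnr2, the RNA of the large mitochondrial ribosomal subunit, was lower on average (log2 fold change -0.32 ± 0.06, SE, adjusted p = 8.47e-05 in edgeR). It was at 243, 208 and 253 CPM in EV-proficient DMSO, 250, 257 and 236 in EV-deficient DMSO, 156, 128 and 118 in EV-proficient paclitaxel, and 297, 268 and 263 in EV-deficient paclitaxel libraries. The 3 EV-proficient paclitaxel libraries lay below all others and the 3 EV-deficient paclitaxel libraries above all others, and the log2 fold changes within those labels were -0.80 and 0.16. Under upper-quartile scaling the average was -0.20 and still past the threshold. mt-Nd1, a membrane subunit of complex I, was at -0.17 ± 0.06 (SE, adjusted p = 0.0239 in edgeR), a call that was lost under upper-quartile scaling (-0.05) and without EV-proficient DMSO replicate 3 (-0.15) or EV-deficient DMSO replicate 2 (-0.14), while without EV-deficient paclitaxel replicate 1 it was -0.27. mt-Nd4 was at 0.16 ± 0.06 (SE, adjusted p = 0.0329 in edgeR) and lost its call in 7 of the 12 fits that left out 1 library, at 0.08 to 0.13: those without EV-proficient DMSO replicate 2, EV-deficient DMSO replicate 1 or 3, any EV-proficient paclitaxel replicate, or EV-deficient paclitaxel replicate 1. Under upper-quartile scaling mt-Nd4 was at 0.28, and mt-Rnr1, mt-Nd5, mt-Nd6 and mt-Cytb gained a call (0.18, 0.17, 0.22 and 0.25) while mt-Nd1 lost its own. The 7 genes without a call were mt-Rnr1 (0.06), mt-Nd2 (-0.01), mt-Nd3 (0.25), mt-Nd5 (0.05), mt-Nd6 (0.10), mt-Cytb (0.13) and mt-Tp (-0.16), as average log2 fold changes.

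**Figure D3:**
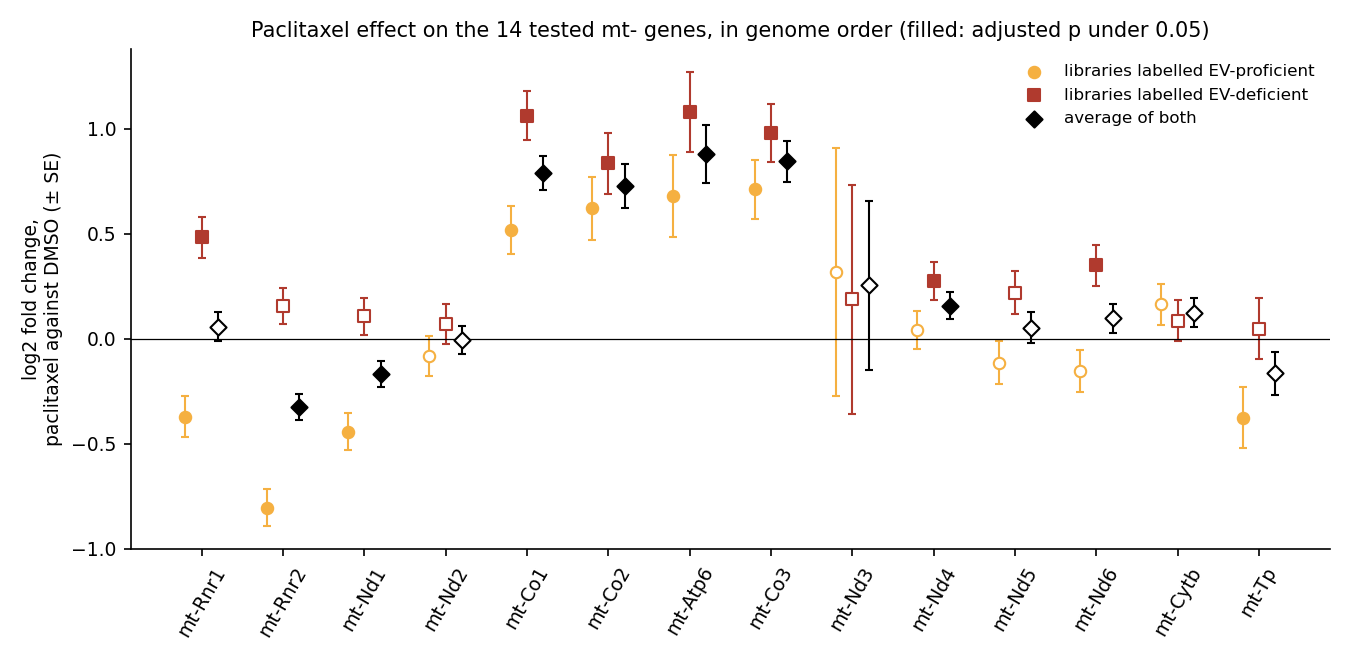
Log2 fold change of paclitaxel against DMSO for the 14 tested mt- genes in genome order, within each EV label and averaged over both (points, with whiskers for the SE; filled points have an adjusted p under 0.05 in edgeR). mt-Co1, mt-Co2, mt-Atp6 and mt-Co3 are filled and above 0 in all 3 comparisons, while mt-Rnr1 is at -0.37 in the libraries labelled EV-proficient and at 0.48 in those labelled EV-deficient.

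In the libraries labelled EV-proficient, paclitaxel raised 4 mitochondrial genes and lowered 4, out of 14 tested, where 58.2% of all genes were called (31.1% higher, 27.1% lower), so the total was near the background. The higher genes were mt-Co1 (0.52 ± 0.12), mt-Co2 (0.62 ± 0.15), mt-Co3 (0.71 ± 0.14) and mt-Atp6 (0.68 ± 0.20), as log2 fold changes ± SE, with adjusted p of 6.04e-04, 0.00112, 1.61e-04 and 0.0051 in edgeR. The lower genes were mt-Rnr2 (-0.80 ± 0.09), mt-Nd1 (-0.44 ± 0.09), mt-Rnr1 (-0.37 ± 0.10) and mt-Tp (-0.38 ± 0.15), with adjusted p of 8.58e-08, 2.40e-04, 0.00297 and 0.0324. The groups did not overlap for any of these 8 genes except mt-Tp; over all genes 33.1% did not overlap with paclitaxel higher and 29.2% with paclitaxel lower. The median of the 14 genes was -0.02, beside 0.05 for all genes. The call of mt-Atp6 was lost without EV-proficient paclitaxel replicate 1 (0.47), and that of mt-Tp under upper-quartile scaling (-0.32) and without EV-proficient DMSO replicate 2 (-0.38), EV-proficient DMSO replicate 3 (-0.20) or EV-proficient paclitaxel replicate 1 (-0.40).

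In the libraries labelled EV-deficient, 7 of the 14 were higher under paclitaxel and none was lower, where 62.9% of all genes were called (32.4% higher, 30.5% lower). The groups did not overlap for 7 genes, which were 6 of the called genes and mt-Rnr2, against 35.2% of all genes in that direction, and those of mt-Nd4 overlapped. mt-Co1 was 2.09-fold higher (log2 fold change 1.06 ± 0.12, SE, adjusted p = 6.51e-08 in edgeR), mt-Atp6 2.12-fold (1.08 ± 0.19, adjusted p = 3.81e-05), mt-Co3 1.97-fold (0.98 ± 0.14, adjusted p = 2.08e-06) and mt-Co2 1.79-fold (0.84 ± 0.14, adjusted p = 3.17e-05). The 12S ribosomal RNA mt-Rnr1, the RNA of the small mitochondrial ribosomal subunit, rose from 130, 131 and 127 CPM to 201, 200 and 142 CPM (0.48 ± 0.10, adjusted p = 1.90e-04). mt-Nd6, the protein gene transcribed from the opposite strand to the rest, was at 0.35 ± 0.10 (adjusted p = 0.00378) and mt-Nd4 at 0.27 ± 0.09 (adjusted p = 0.011). The call of mt-Nd6 was lost without EV-deficient paclitaxel replicate 1 (0.25), and under upper-quartile scaling its value was 0.53. The call of mt-Nd4 was lost without that library (0.17), without EV-deficient DMSO replicate 1 (0.22) and without EV-deficient DMSO replicate 3 (0.19), and under upper-quartile scaling its value was 0.46. The median of the 14 genes was 0.25, beside 0.07 for all genes, and upper-quartile scaling, which shifted the median of all genes by 0.18, gave 12 higher and none lower.

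**Figure D4:**
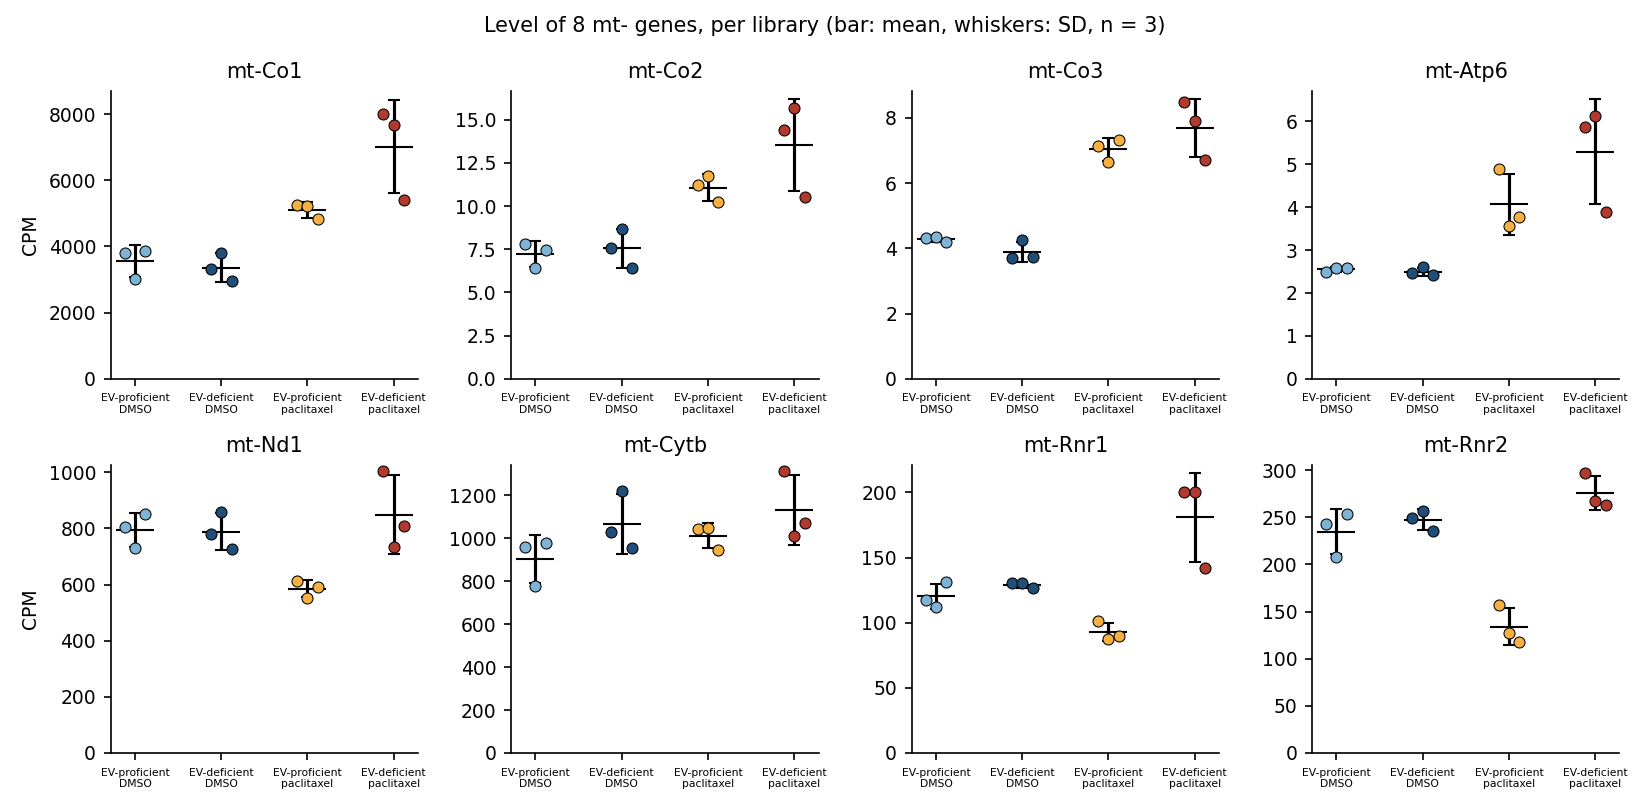
Level in CPM of 8 mt- genes in the 12 libraries, with 1 point per library, a bar for the group mean and whiskers for the SD (n = 3). The paclitaxel groups lie above both DMSO groups for mt-Co1, mt-Co2, mt-Co3 and mt-Atp6, while for mt-Nd1 and mt-Rnr2 the EV-proficient paclitaxel libraries (553 to 612 CPM and 118 to 156 CPM) are the lowest.

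The paclitaxel effect differed between the EV labels for 5 of the 14 genes in the test of the interaction, all in the direction of a higher effect in the EV-deficient label as deposited, where 40.7% of all genes were called (16.9% higher, 23.8% lower). This direction, like that of the EV comparison under paclitaxel, rests on the EV labels, against which the dngfr row reversed between treatments. The differences in log2 fold change were 0.96 ± 0.12 for mt-Rnr2 (SE, adjusted p = 2.20e-06 in edgeR), 0.86 ± 0.14 for mt-Rnr1 (adjusted p = 3.95e-05), 0.55 ± 0.13 for mt-Nd1 (adjusted p = 0.00141), 0.54 ± 0.16 for mt-Co1 (adjusted p = 0.0107) and 0.50 ± 0.14 for mt-Nd6 (adjusted p = 0.00597). Each of these 5 calls held in every fit that left out 1 library. The median over the 14 genes was 0.37, beside -0.04 for all genes, and upper-quartile scaling, which shifted the median of all genes by 0.12, gave 8 higher and none lower. For mt-Co2, mt-Co3 and mt-Atp6 the differences of 0.22 ± 0.21, 0.27 ± 0.20 and 0.40 ± 0.27 (SE) did not pass the threshold.

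Between EV labels under DMSO, none of the 14 mitochondrial genes was called by edgeR or by DESeq2, where edgeR called 23.0% of all genes. At an unadjusted p under 0.05 there was 1, mt-Cytb, at 958, 777 and 976 CPM in the EV-proficient and 1027, 1220 and 953 CPM in the EV-deficient libraries. These groups overlapped in CPM, and the log2 difference was 0.24 ± 0.10 (SE, adjusted p = 0.0889 in edgeR). They did not overlap in the share of mt-Cytb among mitochondrial counts, at 12.7% to 12.9% and 14.7% to 15.3%. Nor did they in its ratio to mt-Nd1, at 1.06 to 1.19 and 1.31 to 1.42. mt-Cytb was called without EV-deficient DMSO replicate 3 (0.32) and mt-Tp without EV-proficient DMSO replicate 1 (-0.44). The differences of the 14 genes ran from -0.30 (mt-Tp) to 0.37 (mt-Nd3, at 6 to 27 counts per library), with a median of 0.05, beside 0.04 for all genes.

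Under paclitaxel, 7 of the 14 were higher in the EV-deficient libraries and none lower, where 37.8% of all genes were called (16% higher, 21.8% lower). The ribosomal RNAs differed most, with mt-Rnr2 2.05-fold and mt-Rnr1 1.95-fold higher (log2 differences 1.04 ± 0.09 and 0.96 ± 0.10, SE, adjusted p of 1.25e-08 and 1.92e-07 in edgeR). mt-Nd1 was at 612, 553 and 591 CPM in the EV-proficient and 1004, 734 and 809 CPM in the EV-deficient libraries (0.54 ± 0.09, adjusted p = 7.49e-05). mt-Nd6 (0.50), mt-Co1 (0.46), mt-Nd5 (0.37) and mt-Nd4 (0.31) also passed the threshold, with groups that did not overlap, which held for 19.9% of all genes in this direction. The calls of mt-Nd4 and mt-Nd5 were lost without EV-deficient paclitaxel replicate 1 (0.22 and 0.25), the library with the highest value of its group for 12 of the 14 genes. DESeq2 called 8, adding mt-Nd2 (0.24). Between these groups the mean share of Malat1 and Neat1 (0.0487% in EV-proficient, 0.0926% in EV-deficient libraries) also differed. So did the summed squamous markers (2743 to 2879 and 2113 to 2431 CPM), and the part of either was not tested.

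Within the ribosomal RNA pair, the ratio of mt-Rnr2 to mt-Rnr1 counts was 1.95 ± 0.11 and 1.91 ± 0.052 in the EV-proficient and EV-deficient DMSO libraries and 1.44 ± 0.12 and 1.56 ± 0.27 under paclitaxel (SD, n = 3 each). In the EV-deficient label the ranges came close, with 1.86 the lowest DMSO and 1.85 the highest paclitaxel library. The ratio of mt-Cytb to mt-Nd1 counts was 1.13 ± 0.065 in EV-proficient DMSO and 1.73 ± 0.15 in EV-proficient paclitaxel libraries, with no overlap, and 1.35 ± 0.061 and 1.34 ± 0.035 in the EV-deficient groups, which overlapped. mt-Nd6 and mt-Nd5 lie on opposite strands and share 14 bases, and the ratio of their counts was 0.193 ± 0.011 and 0.188 ± 0.0060 in EV-proficient DMSO and paclitaxel libraries, which overlapped. In the EV-deficient label it was 0.189 ± 0.0051 under DMSO (0.183 to 0.193) and 0.207 ± 0.0071 under paclitaxel (0.201 to 0.215), with no overlap (SD, n = 3 each). The kit marks strand, but whether strand was used in counting is not given in the sources used here.

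Among the nuclear genes for other subunits of the same complexes, most of those tested were lower. Of 44 nuclear-encoded partners tested, 36 were lower under paclitaxel, 8 did not pass the threshold and none was higher (median log2 fold change -0.29), where 31.3% of all genes were lower. By complex, 8 of 10 were lower for complex I, 7 of 9 for complex III, 6 of 10 for complex IV and 15 of 15 for complex V. In the EV-proficient label 2 were higher and 21 lower, where 31.1% of all genes were higher and 27.1% lower, and the total of 23 of 44 was below the 58.2% called over all genes. In the EV-deficient label none was higher and 39 were lower, where 30.5% of all genes were lower. Upper-quartile scaling gave 2 higher and 27 lower on average, and 4 higher and 17 lower in the EV-proficient label. These lists, like those below, were drawn up with earlier results of these data known.

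**Figure D5:**
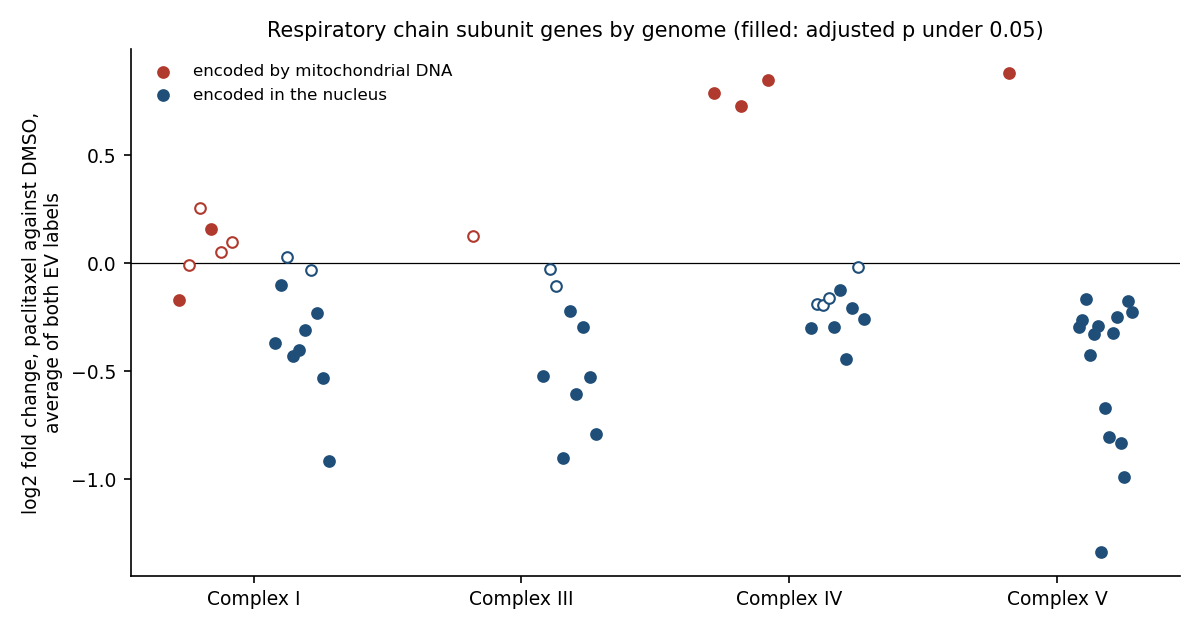
Average log2 fold change of paclitaxel against DMSO for respiratory chain and ATP synthase subunit genes, by complex, with 1 point per gene (red for mt- genes, blue for nuclear genes; filled points have an adjusted p under 0.05 in edgeR). The 4 tested mt- genes of complexes IV and V lie between 0.73 and 0.88, and all filled nuclear genes lie below 0.

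Of the 62 tested nuclear genes for mitochondrial transcription, DNA maintenance, RNA processing and their regulation, 9 were higher and 37 lower on average (13 and 29 under upper-quartile scaling), with a median of -0.24, beside 37.1% higher, 31.3% lower and a median of 0.07 over all genes. Most of the lower genes handle RNA after transcription: 25 of 34 RNA processing genes were lower and 2 higher, against 7 lower and 4 higher of 18 for transcription and DNA maintenance and 5 lower and 3 higher of 10 regulators. Elac2, the enzyme that cuts the 3′ ends of transfer RNAs out of the precursors, was 128 ± 3.8 and 144 ± 7.0 CPM in the EV-proficient and EV-deficient DMSO libraries and 51.7 ± 2.6 and 42.6 ± 3.7 CPM under paclitaxel (SD, n = 3 each). Its average log2 fold change was -1.54 ± 0.05 (SE, adjusted p = 4.43e-16 in edgeR). Tbrg4 (also called FASTKD4), which stabilises a set of mitochondrial messages, was at -1.42 ± 0.05. Lrpprc, which binds mitochondrial messages and keeps them stable and polyadenylated, fell from 134 ± 5.9 and 149 ± 2.0 CPM to 71.7 ± 1.6 and 65.4 ± 6.5 CPM (-1.05 ± 0.05, adjusted p = 4.31e-14). Its partner Slirp was listed at no more than 0.0373 CPM in any library and was not tested. Rcc1l, a factor of mitochondrial ribosome assembly, was at -1.40 ± 0.08 in the EV-proficient and -0.87 ± 0.07 in the EV-deficient label, with a difference of 0.53 ± 0.11 that passed the threshold, and at -1.13 ± 0.05 on average.

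Polrmt, the mitochondrial RNA polymerase, was at 32.9 ± 2.5 and 39.9 ± 1.1 CPM in the EV-proficient and EV-deficient DMSO libraries and at 31.7 ± 3.2 and 21.8 ± 2.6 CPM under paclitaxel (SD, n = 3 each). Its log2 fold change was -0.46 ± 0.07 on average (adjusted p = 2.08e-06), -0.05 ± 0.09 in the EV-proficient label, where it was not called, and -0.87 ± 0.09 in the EV-deficient label, with a difference of -0.81 ± 0.13 between labels (adjusted p = 3.37e-05 in edgeR). Tfam, which packs mitochondrial DNA and starts its transcription, was higher in the EV-proficient label (0.31 ± 0.07) and lower in the EV-deficient label (-0.35 ± 0.07, lost under upper-quartile scaling at -0.16), with no call on average (-0.02). Tfb1m, which methylates the 12S ribosomal RNA, was at 0.66 ± 0.13 and -0.32 ± 0.12, the latter call being lost in DESeq2 (-0.30), under upper-quartile scaling (-0.14), and without EV-deficient DMSO replicate 1 (-0.28) or 3 (-0.35) or EV-deficient paclitaxel replicate 2 (-0.26) or 3 (-0.30). Twnk, the helicase of mitochondrial DNA, was at 0.07 ± 0.08 (not called) and -0.92 ± 0.08. For Polrmt, Tfam, Tfb1m and Twnk the EV-deficient effect was the lower one, each with a call in the interaction test. Tfb1m and Twnk were named for their low values in that test, which fixed their direction. Of the 18 genes for transcription and DNA maintenance, 7 were lower there, 1 higher and 10 not called. The 34 RNA processing genes had 14 lower and 4 higher, where 23.8% of all genes were lower and 16.9% higher. For mt-Rnr1, mt-Rnr2 and mt-Nd1 the EV-deficient effect was the higher one.

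Genes above the DMSO level were fewer. Ppargc1a, a coactivator that drives mitochondrial biogenesis, was at 0.442 ± 0.11 and 0.640 ± 0.091 CPM in the EV-proficient and EV-deficient DMSO libraries and 2.70 ± 0.53 and 2.52 ± 0.26 CPM under paclitaxel (SD, n = 3 each), an average log2 fold change of 2.29 ± 0.19 (SE, adjusted p = 7.59e-10 in edgeR). Primpol, a primase and polymerase that acts in the nucleus and in mitochondria, was at 1.41 ± 0.07, and Ngrn, which takes part in mitochondrial ribosomal RNA handling, at 0.38 ± 0.06, both past the threshold on average. Ngrn rose in the EV-proficient label (0.74 ± 0.08) and was at 0.02 ± 0.08 in the EV-deficient label, where upper-quartile scaling gave it a call (0.20).

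Between EV labels under DMSO, the partners were 12 higher and 1 lower of 44 (23.0% of all genes called), a count that fell to 7 calls under median-of-ratios and 8 under upper-quartile scaling and to 4 without EV-proficient DMSO replicate 1 or EV-deficient DMSO replicate 1, the lowest of a range of 4 to 14 over the fits without 1 library. The 62 genes of mitochondrial gene expression had 6 higher and 3 lower (4 and 4 under upper-quartile scaling, 5 and 4 under median-of-ratios scaling), led by Twnk (0.47 ± 0.08) and Tfam (0.36 ± 0.07), with Rcc1l (-0.42 ± 0.07) and Ptcd1 (-0.34 ± 0.08), an RNA-binding protein of the mitochondrion, the lowest. Under paclitaxel, where 37.8% of all genes were called (16% higher, 21.8% lower), the same lists had 2 higher and 20 lower partners (6 and 14 under upper-quartile scaling) and 3 higher and 24 lower genes of mitochondrial gene expression (11 and 16). Rexo2, an oligoribonuclease (0.47 ± 0.08), and Fastkd1, which acts on single mitochondrial messages (0.47 ± 0.10), were the highest, and Tfb1m (-0.76 ± 0.13) and Polrmt (-0.54 ± 0.09) the lowest of the called genes. In the interaction test, where 16.9% of all genes were higher and 23.8% lower, the partners had 3 higher and 25 lower, and the 62 genes 5 higher and 26 lower (8 and 16 under upper-quartile scaling), with Rexo2 (0.73 ± 0.11) and Fastkd1 (0.53 ± 0.14) highest and Twnk (-0.99 ± 0.11) and Tfb1m (-0.98 ± 0.18) lowest.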

How the data were processed

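Poly(A)+ RNA of cultured cells was sequenced in 12 libraries with a kit that marks strand, per the labels' protocols. The deposited table holds whole read counts per gene, not normalized by the authors. STAR 2.5.0a and GRCm38 are named in the submitters' processing notes, with no role given; the counting program, its treatment of strand and of reads matching several places, and the annotation release are not given in the sources used here. Table columns were matched to samples through the sample descriptions (0 columns of other samples). The 2 rows added by the authors were left out of library sizes and tests; rows with an ID and no symbol took up to 0.102% of a library and were kept.

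The fit used edgeR 4.0.16 (R 4.3.3). Of 35104 genes that had a count, filterByExpr (minimum count 10) kept 18108. TMM factors ran from 0.891 to 0.939 in the DMSO libraries and from 1.05 to 1.15 in the paclitaxel libraries. Scaling thus lowered the paclitaxel values relative to those under DMSO, and small fold changes depend on it. The quasi-likelihood model held a mean for each group, without covariates, over 12 libraries, with Benjamini-Hochberg adjustment over all genes and a threshold of 0.05. Each SE was taken as the size of the log2 value over the root of its F. CPM uses scaled library sizes. Nuclear copies were sought by aligning GENCODE M21 transcripts (99.5% of table IDs matched; at least 90% identity over 100 bases). Floors cover counting error only.

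Named genes were all mt- protein and rRNA genes, the transfer RNA genes that passed the filter, Tfam, Polrmt, Lrpprc, Slirp, Ppargc1a, the pseudogenes with counts, and per comparison the 2 highest and 2 lowest called genes of the 3 nuclear lists with a mean of at least 5 CPM and, in a simple comparison, groups that did not overlap. The members and lists were chosen with earlier results of these data known. The labels do not say whether replicates were separate cultures, so p-values measure the spread between these libraries, which may be technical. Replicate pairs differed by more than sampling noise (chi-square per degree of freedom 4.20 to 27.8 over 12 pairs). The alternatives tried were 2 other scalings in edgeR (median-of-ratios, upper-quartile), library sizes without the mt- genes, no filter, DESeq2 1.42.0, the replicate number as a block, leaving out each library, and counts summed with the chromosome 1 copy. On simulated counts for the EV-proficient paclitaxel comparison (17421 genes tested), 66, 65 and 65 genes were changed 1.5-, 2- and 4-fold. edgeR recovered 54.5%, 72.3% and 81.5% of them, with 9 false calls. With so few changed genes this cannot show how scaling behaves where 58.2% of genes are called, as in the real comparison.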

Additional observations from a re-analysis of the deposited data

Results flagged for a closer look

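The paclitaxel effect differed between the EV labels by the interaction test for 5 mitochondrial genes, with differences in log2 fold change of 0.8555 for mt-Rnr1, 0.9600 for mt-Rnr2, 0.5489 for mt-Nd1, 0.5442 for mt-Co1 and 0.5039 for mt-Nd6. These differences rest on the EV labels as deposited, against which the dngfr row reversed between treatments. For mt-Rnr1 the effect had opposite signs in the 2 labels, each past the threshold (-0.37 and 0.48).

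The dngfr row, outside the gene tests, reached 758 counts in EV-deficient paclitaxel replicate 3, against 96 to 116 counts in the EV-deficient DMSO libraries. In the EV-proficient label it ran the other way, at 235 to 416 counts under DMSO and 93 to 199 under paclitaxel.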

How the results depend on the processing

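No mitochondrial gene with a call changed sign under any alternative run. Of 34 calls of mitochondrial genes over the 6 comparisons, 26 held in every fit that left out 1 library. Upper-quartile scaling gave 12 calls in place of 7 for paclitaxel in the EV-deficient label and 8 in place of 5 for the interaction; with no low-count filter there was 1 call in place of 0 between EV labels under DMSO (mt-Cytb) and 15 in place of 9 for the 62 nuclear genes. For the partners between EV labels under DMSO, 7 were called with median-of-ratios and 8 with upper-quartile scaling, in place of 13. With 1 library left out, the mitochondrial calls ran from 6 to 8 (paclitaxel, EV-proficient), 5 to 9 (EV-deficient), 0 to 1 (EV labels, DMSO), 5 to 9 (EV labels, paclitaxel), 5 to 7 (interaction) and 6 to 8 (average); those of the 62 nuclear genes between EV labels under DMSO from 6 to 12, and those of the 44 partners from 4 to 14. The cause was not tested.

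The replicate number did not pair the libraries: over 18 pairs with the same number, deviations from group means correlated at -0.0812 to 0.0970, and 1 library correlated best with its own number. With the replicate number as a block the counts of mitochondrial calls were 8, 7, 0, 7, 5 and 7, as without it. Low counts limit mt-Nd3, mt-Nd4l and mt-Atp8, at 27, 11 and 2 counts at most, and the reason for them was not tested. The last 2 genes were not tested, and mt-Nd3 had an SE of 0.40 on the average log2 fold change, so small differences were not detectable.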
